A study of Mus musculus with 7 samples.

Results

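The 118 mouse genes described here are the protein-coding genes of GENCODE M21 whose symbol starts with Mapk, Map2k, Map3k, Map4k, Csnk, Dyrk, Hipk, Camk, Mark, Stk, Nek or Ulk followed by a digit, out of 22028 protein-coding genes. They were chosen by name alone, and the symbol rule also took 10 genes that encode no kinase, such as the Camk2 inhibitors Camk2n1 and Camk2n2, the casein kinase 2 regulatory subunit Csnk2b and the scaffolds Mapk8ip1, Mapk8ip2 and Mapk8ip3. Argonaute-bound RNA was mapped by PAR-CLIP, in which 4-thiouridine taken up into RNA is linked by ultraviolet light (here of 365 nm) to the protein that touches it, in explants of retina from CD-1 mice at postnatal day 0. There were 5 libraries made with the Argonaute antibody 2A8 and 2 made with an IgG1 isotype control, each from 6 pooled retinas kept for 24 h with 0.1 mM 4-thiouridine, so that each library averages over animals and over all retinal cells. Both deposited tables are pooled over the Argonaute arm. The crosslink table scores each position by how many libraries share it (2 to 5), and the miR-216 table gives matches to the seeds of miR-216a and miR-216b near such positions. Neither IgG values nor values of single libraries entered the analysis, so nothing below is tested against the spread of replicates, and the depth at a position is unknown. Of 15 genes that mark retinal cells, 13 held a crosslink position (Rax and Pou4f2 held none). Of 8 genes that mark pigment epithelium, vessels, microglia, surface epithelium or liver 0 did, beside 22.1% of all protein-coding genes. Both lists were made with earlier results of these data known, and so few genes cannot show that a cell type was absent.

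Serine-threonine kinases pass signals by adding phosphate to serine or threonine residues of other proteins. In the MAP kinase cascades, Map4k enzymes act upstream of Map3k enzymes, which activate Map2k enzymes. The Map2k enzymes activate the Mapk enzymes ERK, JNK and p38, and these reach transcription factors. The other families act beside them: Dyrk and Hipk kinases on transcription and chromatin proteins, casein kinases on Wnt and clock proteins, Camk enzymes in response to calcium, Mark kinases on microtubule-associated proteins, Nek kinases on centrosomes and cilia, and Ulk kinases at the start of autophagy. Argonaute carries a microRNA whose seed, bases 2 to 8, pairs with target RNA, mostly in 3′ UTRs, and lowers the stability or translation of the target.

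The microRNAs shown here are those of the study itself and some of the families with matches at the most recurrent kinase positions. They are as RefSeq gives them on GRCm38.p6, 5′ to 3′, with the seed in capitals. Families miR-153, miR-30 and miR-19 also had matches at such positions, described below without sequence.
miR-216a-5p: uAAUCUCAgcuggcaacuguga
miR-216b-5p: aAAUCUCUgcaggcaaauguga
miR-17-5p: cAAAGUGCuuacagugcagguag
miR-9-5p: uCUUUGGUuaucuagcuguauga
miR-92a-3p: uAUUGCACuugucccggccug
miR-26a-5p: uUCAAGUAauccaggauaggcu
miR-181a-5p: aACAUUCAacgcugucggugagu
miR-101a-3p: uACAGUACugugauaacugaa
A match named 7mer-m8 below is the reverse complement of the 7 seed bases, and an 8mer is such a match followed by A. Except at the deposited miR-216 sites, every match to a family is at least a 7mer-m8, and shorter matches were not searched for.

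The deposited miR-216 table placed 9 sites in 7 of the kinase-family genes. Sequence is shown for 7 of the 8 exonic sites (that of Csnk1a1 is not printed), from GENCODE M21 spliced transcripts (GRCm38, the mm10 assembly), with the deposited interval in capitals.
Dyrk2, 572 nt after the stop codon: ggaaaactgcactttcGAGATTttcttttt
Dyrk2, 3764 nt after the stop codon: tacagatttctgTGAGATgctgctgttgcc
Dyrk2, 3912 nt after the stop codon: attttattgttgtggccAGAGATaatttca
Camk2d, 1790 nt after the stop codon: cgtgtaacctgccaaTGAGATctgtgaaaa
Stk4, 2900 nt after the stop codon: gtcaggaatgagAGAGATgacatcactgca
Map4k4, coding exon 24 of 31: tttaactcAGAGATcctgtgtgctgcctta
Mapk8, coding exon 6 of 12: atcagactgcacttTGAAGATTcttgattt

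The second set shows the positions found in 4 or 5 Argonaute libraries that had a match to another family starting within 3 nt of the crosslinked T, 9 of 13 in all; those of Csnk1a1 and Map3k2 are described below without sequence. Each run begins 8 nt before the crosslinked T, on the strand of the gene, with the match in capitals.
Map3k1, 3′ UTR, 5 libraries, miR-9: ttttcttctACCAAAGttcactct
Map3k1, coding sequence, 4 libraries, miR-9: ccaggacatACCAAAGcgaaacag
Map3k1, 3′ UTR, 4 libraries, miR-101: ctgaaaattGTACTGTgtaattat
Dyrk1a, 3′ UTR, 4 libraries, miR-9: atttattgtACCAAAGctgttttt
Hipk1, 3′ UTR, 4 libraries, miR-9: tgtgtttatACCAAAGAgcctgtt
Map2k4, 3′ UTR, 4 libraries, miR-25/92: agacaccatGTGCAATAagactgg
Nek1, 3′ UTR, 4 libraries, miR-25/92: aaatttattGTGCAATAaggaact
Nek7, 3′ UTR, 4 libraries, miR-181: cttttcaatTGAATGTActgttta
Ulk2, 3′ UTR, 4 libraries, miR-26: tgcttgaaTACTTGAAtaaaccat
In 8 of these 9 runs the match began at the base after the crosslinked T, and in Ulk2 it began at that T.

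Argonaute was crosslinked to the RNA of 56 of the 118 kinase-family genes (47.5%, exact 95% binomial interval 38.2 to 56.9), at 214 of the 14054 positions in the table. Over all protein-coding genes the share was 22.1%. Intervals cover counting error only, and neither share was set against expression, which the tables do not hold: no position found in fewer than 2 libraries is listed, and in whole retina few cells with much of an RNA cannot be told apart from many cells with little. Values over all positions or genes include the kinase-family ones. Of the 56 genes, 19 had 1 position, 10 had 2, 10 had 3 or 4 and 17 had 5 or more, and these 17 held 141 of the 214 positions. The median was 2 positions per gene, as it was over the 4867 protein-coding genes with a position. Without the 10 genes that encode no kinase, 52 of 108 (48.1%) had a position, and the pseudokinase Ulk4 was kept among the 108.

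**Figure D1:**
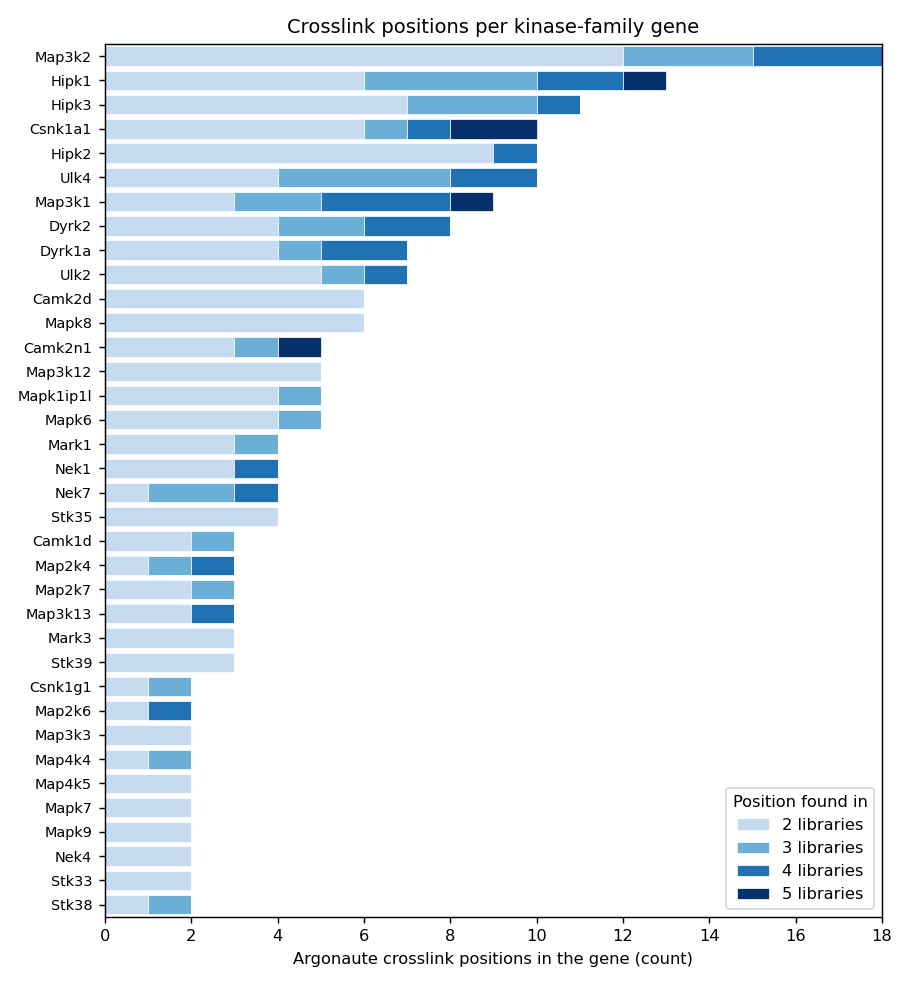
Number of Argonaute crosslink positions (x axis) in each of 36 of the 37 kinase-family genes with 2 or more, split by the number of libraries that share each position. Map3k2 had the most, with 18 positions, and Csnk1a1 had 2 of its 10 positions in all 5 libraries.

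Most kinase positions lay in 3′ UTRs. The 3′ UTR held 143 positions (66.8%, 60.1 to 73.1) in 43 genes, beside 52.1% of all positions. Coding sequence held 37 (17.3%, 12.5 to 23.0), beside 20.9% of all positions, and introns held 32 (15.0%, 10.5 to 20.4), beside 17.9%. Noncoding exons held 2 (0.935%, beside 4.45%) and 5′ UTRs held 0, beside 0.761% of all positions, and a count of 0 allows a share of up to 1.71% (upper bound of the interval). The kinase-family genes are protein-coding by rule, while all positions include those in noncoding genes and outside genes. The shares therefore have unlike bases, and the gap in noncoding exons is partly set by the rule. Positions of 1 gene share their transcript and are not independent, so these shares are a description and no test was made.

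Recurrence among the kinase positions was near that of the whole table. In 3 or more libraries were 65 positions (30.4%, 24.3 to 37.0), beside 25.6% of all positions; in 4 or 5 libraries 29 (13.6%, 9.27 to 18.9), beside 9.81%; and in all 5 libraries 6 (2.80%, 1.04 to 6.00), beside 3.47%. The 3′ UTR share among kinase positions was 61.1% (91 of 149) for those in 2 libraries, 77.8% (28 of 36) for 3, 78.3% (18 of 23) for 4 and 6 of 6 for 5. Over all positions the same shares were 47.0%, 62.5%, 72.5% and 77.2%. Within 3′ UTRs alone, 36.4% (28.5 to 44.8) of kinase positions and 32.9% of all positions were in 3 or more libraries.

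**Figure D2:**
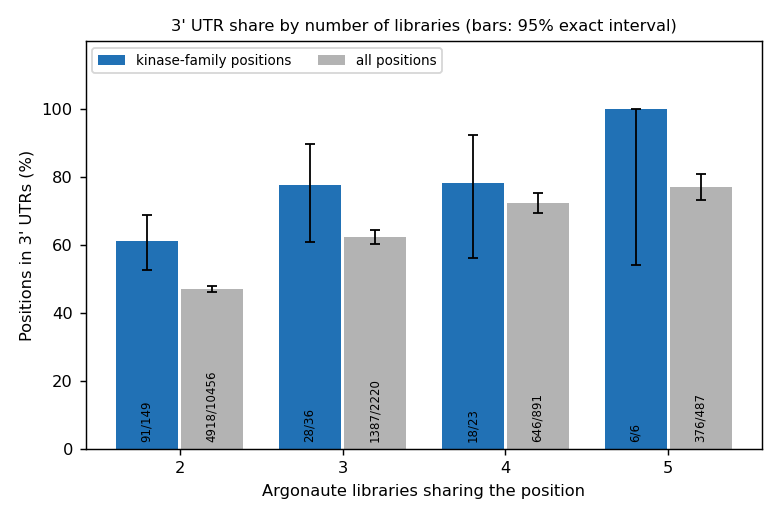
Share of positions in 3′ UTRs (y axis, percent) by the number of Argonaute libraries that share the position (x axis), for kinase-family genes (blue, left) and for all positions (grey, right), with exact 95% binomial intervals and counts printed in the bars. The kinase share was 61.1% in 2 libraries and 77.8% in 3, and the intervals for 4 and 5 libraries are wide, at 56.3 to 92.5% and 54.1 to 100%. All positions include those in noncoding genes and outside genes, which the kinase set cannot hold.

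At the top of the cascade, 3 of 5 Map4k genes had positions. Map4k4, which acts upstream of JNK, had 1 coding position in 2 libraries and 1 in its 3′ UTR in 3 libraries. Map4k5 had 2 coding positions and Map4k3 had 1 intronic position, each in 2 libraries.

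The Map3k genes carried the most positions of any of the 12 symbol groups, with 40 in 8 of 19 genes, 34 of them in 3′ UTRs and 14 in 3 or more libraries. Map3k2, or MEKK2, an activator of the ERK5 branch, had 18 positions and all lay in its 8403 nt 3′ UTR, from 57 to 6909 nt after the stop codon. Of these, 12 were in 2 libraries, 3 in 3 and 3 in 4. The positions in 4 libraries lay 4316, 6630 and 6909 nt after the stop codon, and that at 6909 nt had an 8mer of miR-19 starting 1 nt after it. With 2.14 positions per kb of 3′ UTR, Map3k2 was less dense than Map3k1 (3.24) and Mapk6 (4.35).

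Map3k1, or MEKK1, which feeds JNK and ERK, had 9 positions. Of these, 1 was coding and 8 lay in a 2472 nt 3′ UTR, and 6 of those 8 fell between 2066 and 2251 nt after the stop codon, a stretch of 186 nt. Along that stretch the positions were in 4, 4, 3, 5, 3 and 2 libraries. Matches to 3 families lay in it: miR-101 after the position at 2066 nt, an 8mer of let-7 that started 2 nt after the position at 2150 nt, and miR-9 after the position at 2182 nt, the one in 5 libraries. The coding position, at 111754772 on chromosome 13 in exon 15 of 20, was in 4 libraries and had the same miR-9 match, ACCAAAG, at the same distance.

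Of the other Map3k genes, Map3k12 (DLK) and Map3k13 (LZK), kinases of the response of neurons to axon injury, had 5 and 3 positions. Those of Map3k12 were each in 2 libraries, while Map3k13 had 1 in 4 libraries, 4521 nt after its stop codon. An intronic Map3k13 position also lay within 1300002E11Rik on the same strand and cannot be assigned to either. Map3k3 had 2 positions, Map3k7 (TAK1) had 1 in 3 libraries, and Map3k4 and Map3k10 had 1 each. The 11 Map3k genes without a position included Map3k5 (ASK1), Map3k11 and Map3k9.

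Of the 7 Map2k genes, 3 had positions. Map2k4 (MKK4) had a 3′ UTR position in 4 libraries, 104 nt after the stop codon at 65690587 on chromosome 11, with the 8mer of miR-25/92 shown above, and coding positions in 3 and 2 libraries. Map2k6 (MKK6) had a coding position in 4 libraries, at 110506718 on chromosome 11 in exon 11 of 12, which had no match to a searched family. Map2k7 (MKK7) had 3 positions in its 3′ UTR, with a miR-125 match at the one in 3 libraries and a miR-9 match at another; these also lay within the gene model Gm49320 on the same strand. The ERK activators Map2k1 and Map2k2 had no position, and neither did Map2k3 and Map2k5.

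The Mapk genes had 28 positions in 8 of 18 genes, 19 of them in 3′ UTRs, and 4 were in 3 or more libraries. Mapk3, encoding the kinase ERK1, had none. Mapk8 and Mapk9, encoding JNK1 and JNK2, had 6 and 2 positions, each in 2 libraries, and Mapk10, encoding JNK3, had none. Mapk6, encoding the atypical kinase ERK3, had 5 positions in a 1150 nt 3′ UTR, with an 8mer of miR-26 at 82 nt (2 libraries) and an 8mer of let-7 at 513 nt (3 libraries). Mapk14, encoding p38 alpha, had 1 and Mapk7, encoding ERK5, had 2. Of the genes in this symbol group that encode no kinase, Mapk1ip1l had 5 positions and the JNK scaffold Mapk8ip3 had 1.

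The Hipk kinases, which bind homeodomain transcription factors, had 34 positions in 3 of 4 genes. Hipk1 had 13, of which 12 lay in its 3′ UTR. They were in 5 libraries at 928 nt after the stop codon, in 4 at 1344 and 2028 nt, in 3 at 1364, 1385, 1413 and 1479 nt, and in 2 at the other 5. Of these, 6 fell in the 136 nt from 1344 to 1479 nt, and none of the 6 had a match to a searched family, while the position at 2028 nt had the 8mer of miR-9 shown above. Hipk3 had 9 positions in its 3′ UTR and 2 in coding sequence, spread from 122 to 3146 nt after the stop codon, with 1 in 4 libraries. It had matches to miR-25/92 at 3 of its positions, at 122, 1121 and 3146 nt, the last an 8mer in 3 libraries. Hipk2 differed in place: 4 of its 10 positions were coding and 2 intronic, and its 1 position in 4 libraries was coding, at 38818957 on chromosome 6 in exon 2 of 15.

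Of the Dyrk kinases, Dyrk1a and Dyrk2 had positions and Dyrk1b, Dyrk3 and Dyrk4 had none. Dyrk1a, a kinase whose gene dose affects brain growth, had 3 positions in its 3′ UTR: 2 in 4 libraries at 1237 and 1284 nt, with a miR-9 match at 1284 nt, and 1 in 3 libraries at 1892 nt with a let-7 match. Its 3 intronic positions and 1 coding position were in 2 libraries each. Dyrk2, which primes substrates for other kinases, had 8 positions, all in its 3949 nt 3′ UTR. In order from the stop codon they lay at 563, 1732, 2770, 3103, 3688, 3724, 3769 and 3902 nt and were in 2, 3, 4, 4, 2, 3, 2 and 2 libraries. The 2 positions in 4 libraries had no match to a searched family, while those at 563, 1732, 3688, 3724 and 3769 nt had matches to miR-17/20/93, miR-182 (8mer), miR-103 (8mer), miR-181 and miR-103 with miR-15/16.

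**Figure D3:**
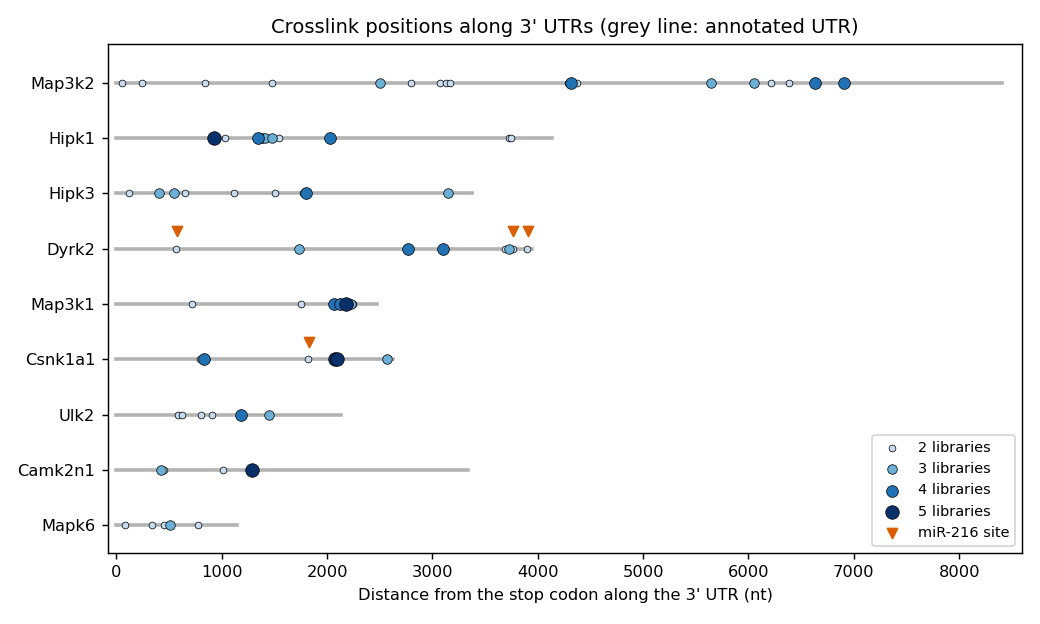
Distance of each 3′ UTR crosslink position from the stop codon (x axis, nt) for 9 kinase-family genes with 5 or more such positions; grey lines are the annotated 3′ UTRs, colour and size give the number of libraries, and orange triangles are deposited miR-216 sites. Map3k1 and Hipk1 had 6 positions each within 200 nt, and the miR-216 sites of Dyrk2 and Csnk1a1 lay beside positions in 2 libraries.

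The casein kinases had 16 positions in 6 of 9 genes. Csnk1a1, casein kinase 1 alpha, part of the complex that marks beta-catenin for destruction, had 10. Its 7 positions in the 2628 nt 3′ UTR were in 2, 4, 2, 5, 5, 2 and 3 libraries, in order from the stop codon. The 2 in all 5 libraries were 19 nt apart, at 2074 and 2093 nt; the later one had a miR-17/20/93 match starting 1 nt after it, and both windows held miR-153 matches. The position in 4 libraries, at 833 nt, had an 8mer of miR-30 starting 1 nt after it, and that at 2573 nt a miR-181 match. Csnk1g1 had 2 positions in its 3′ UTR, the one in 3 libraries with an 8mer of miR-30. Csnk1d and Csnk1e, kinases of the clock protein PER, had 1 each in their 3′ UTRs, in 3 and 2 libraries. Csnk1g3 and Csnk2a1 had 1 intronic position each.

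Of the Camk genes, 4 of 10 had positions. The Camk2 inhibitor Camk2n1 had 5 in its 3′ UTR, in 3, 2, 2, 5 and 2 libraries from the stop codon onward, and its inhibitor relative Camk2n2 had 1, with an 8mer of miR-17/20/93. Camk2d, a catalytic subunit of the calcium-dependent kinase CaMKII, had 6 positions, 3 of them coding, and each was in 2 libraries. Camk1d had 3. The CaMKII genes Camk2a, Camk2b and Camk2g had none. Of the Mark kinases, which detach microtubule-associated proteins, Mark1 had 4 and Mark3 had 3. Mark1 had 1 in 3 libraries, with an 8mer of miR-26, 1686 nt into a 1735 nt UTR, and 2 of those of Mark3 also lay within the gene model Gm48286.

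The Nek, Stk and Ulk genes had 9, 9 and 6 positions in 3′ UTRs. Nek1, a kinase of cilia and of the DNA damage response, had 4, with 1 in 4 libraries at 267 nt after the stop codon. Nek7, a mitotic kinase, had 4, in 3, 4, 3 and 2 libraries, and 3 of these lay from 2689 to 2765 nt after its stop codon. Nek2, Nek4 and Nek6 had 1, 2 and 1. Of the 22 Stk genes, 10 had 17 positions, and 1 of these was in 3 libraries and 0 in more. That position was coding, in Stk38 (NDR1). The Hippo kinases Stk3 and Stk4 had 1 each, Stk35 had 4, Stk39 (SPAK), which controls chloride cotransporters, had 3 and Stk33 had 2, the last 2 genes in introns alone. Ulk2, a kinase that starts autophagy, had 7 positions, 6 in its 3′ UTR: 1 in 4 libraries at 1181 nt with the miR-26 8mer shown above and 1 in 3 libraries at 1447 nt with a let-7 match. Ulk1 and Ulk3 had none.

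Intronic positions were in 17 genes, and in 8 of them no other position was found. Ulk4, a pseudokinase, had 10, all intronic. Of these, 9 lay in intron 17 of 36, between 121220867 and 121239550 on chromosome 9, a span of 18.7 kb, in 4, 2, 4, 2, 3, 3, 3, 2 and 3 libraries from the 5′ end. No other annotated gene covered these positions on either strand. The 22 intronic positions of the other genes were each in 2 libraries, so the 6 intronic kinase positions in 3 or more libraries were those of Ulk4. Over all intronic positions 8.97% were in 3 or more libraries. Without Ulk4, introns held 10.8% of kinase positions and 3′ UTRs 70.1%.

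The 62 kinase-family genes with no position were Camk1, Camk1g, Camk2a, Camk2b, Camk2g, Camk4, Csnk1g2, Csnk2a2, Csnk2b, Dyrk1b, Dyrk3, Dyrk4, Hipk4, Map2k1, Map2k2, Map2k3, Map2k5, Map3k5, Map3k6, Map3k7cl, Map3k8, Map3k9, Map3k11, Map3k14, Map3k15, Map3k19, Map3k20, Map3k21, Map4k1, Map4k2, Mapk1ip1, Mapk3, Mapk4, Mapk8ip1, Mapk8ip2, Mapk10, Mapk11, Mapk12, Mapk13, Mapk15, Mark2, Mark4, Nek3, Nek5, Nek8, Nek9, Nek10, Nek11, Stk10, Stk11ip, Stk16, Stk17b, Stk19, Stk24, Stk25, Stk26, Stk31, Stk32b, Stk32c, Stk36, Ulk1 and Ulk3. Their median annotated 3′ UTR, in the main transcript of each gene, was 973 nt, beside 2070 nt in the 56 genes with a position. Lengths given for positions are from a transcript that holds the position, which can be longer, as in Map4k4 (1598 nt beside 213 nt). A gene that is not listed may still be bound. The 143 kinase positions in 3′ UTRs lay a median of 1360 nt after the stop codon in UTRs of median 3370 nt, beside 962 nt and 2630 nt over all 3′ UTR positions, and at a median of 42.7% of UTR length beside 46.2%.

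miR-216 sites were found in 7 of the 56 kinase-family genes with a crosslink (12.5%, 5.18 to 24.1), beside 6.84% of all crosslinked protein-coding genes, a share within the interval. All 9 sites were linked to a crosslink in 2 libraries, while 99 of the 394 sites in the table had a score of 3 or more. They were 6 in 3′ UTRs, 2 in coding sequence and 1 in an intron. Dyrk2 had 3, and Camk2d, Csnk1a1, Map4k4, Mapk8, Stk4 and Stk39 had 1 each. In none of the 8 exonic sites was a full 7mer-m8 or 8mer of either microRNA present: 6 were offset 6mers, which pair with bases 3 to 8, 1 was the 6mer GAGATT and 1 was the miR-216a 7mer with an extra base. The same split over all 394 sites is not given here, so these match types are not a result about kinases.

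The 3 Dyrk2 sites lay at both ends of its 3′ UTR. That at 118858975 to 118858980 on chromosome 10, minus strand, was the 6mer GAGATT, shared by miR-216a and miR-216b, and started 9 nt after its crosslink. That at 118855783 to 118855788 was TGAGAT, the offset 6mer of miR-216a, and its last base was the crosslinked T. That at 118855635 to 118855640 was AGAGAT, the offset 6mer of miR-216b, and started 10 nt after its crosslink. The 2 Dyrk2 positions in 4 libraries, at 2770 and 3103 nt after the stop codon, had no miR-216 site.

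The Csnk1a1 site was an offset 6mer of miR-216b, 1832 nt after the stop codon, and started 11 nt after a crosslink in 2 libraries; the positions in 5 libraries lay at 2074 and 2093 nt. The Camk2d site, at 126844525 to 126844530 on chromosome 3, started 6 nt after its crosslink. The Stk4 site, at 164154731 to 164154736 on chromosome 2, ended at the crosslinked T, as did the intronic Stk39 site at 68326633 to 68326638 on chromosome 2. The Map4k4 site, at 40014672 to 40014677 on chromosome 1, started 12 nt before its crosslink. The Mapk8 site, at 33393057 to 33393064 on chromosome 14, had the sequence TGAAGATT, in which removal of 1 A leaves the miR-216a 7mer TGAGATT, and it started 7 nt after its crosslink.

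Matches to other families stood at some of the same crosslinks. At the first Dyrk2 site and at the Mapk8 site, the 7mer-m8 of miR-17/20/93, GCACTTT, began 1 nt after the crosslinked T. At the Dyrk2 site it lay between that T and the miR-216 match, and at the Mapk8 site its last base was the first base of the miR-216 match. At the second Dyrk2 site, the crosslink had matches to miR-103 and miR-15/16 starting 1 nt before it and at it. The linked windows of the other 5 exonic sites held no 7mer-m8 of a searched family. Shorter matches, like those at the miR-216 sites, were not searched for in other families. Which microRNA was bound at a position was not measured.

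Over all 182 exonic kinase positions, each with 20 nt read on either side, 68 (37.4%, 30.3 to 44.8) held a 7mer-m8 of at least 1 of the 40 families searched, beside 37.2% of all 10936 exonic windows. The 68 were in 33 genes. An A followed the match in 28 windows (15.4%, 10.5 to 21.5), beside 19.5% of all windows. In 3′ UTRs the share was 42.0% (33.8 to 50.5) for kinase windows and 39.7% for all, and in coding sequence it was 21.6% (8 of 37, 9.83 to 38.2) and 34.2%. By number of libraries it was 34.1% of kinase windows in 2 libraries, 40.6% in 3, 47.6% in 4 and 3 of 6 in 5, beside 32.9%, 44.8%, 49.2% and 54.1% of all windows. These shares were near the background and are not a result about kinases.

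By family, miR-17/20/93 was matched in the most kinase windows, 12 in 9 genes (6.59%, beside 3.64% of all windows). The Map3k12 windows in this count overlap and hold the same match. miR-9 had 8 windows in 7 genes (4.40% beside 2.28%), and miR-25/92 had 7 in 5 genes (3.85% beside 1.63%). miR-181 had 6 windows (3.30% beside 3.5%), and let-7, miR-26 and miR-30 had 5 each (2.75%, beside 2.08%, 2.62% and 2.41%). miR-19 had 2 windows (1.10% beside 3.24%), and miR-130 had 4 (2.20% beside 3.16%). A 7mer-m8 of miR-216a or miR-216b was in 0 of the 182 kinase windows, beside 112 of all 10936. Counts per family are small and were not tested. The let-7 matches were in Dyrk1a, Map3k1, Mapk6, Stk40 and Ulk2, and those of miR-9 in Dyrk1a, Hipk1, Map2k7, Map3k1, Map3k3, Nek1 and Stk3.

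**Figure D4:**
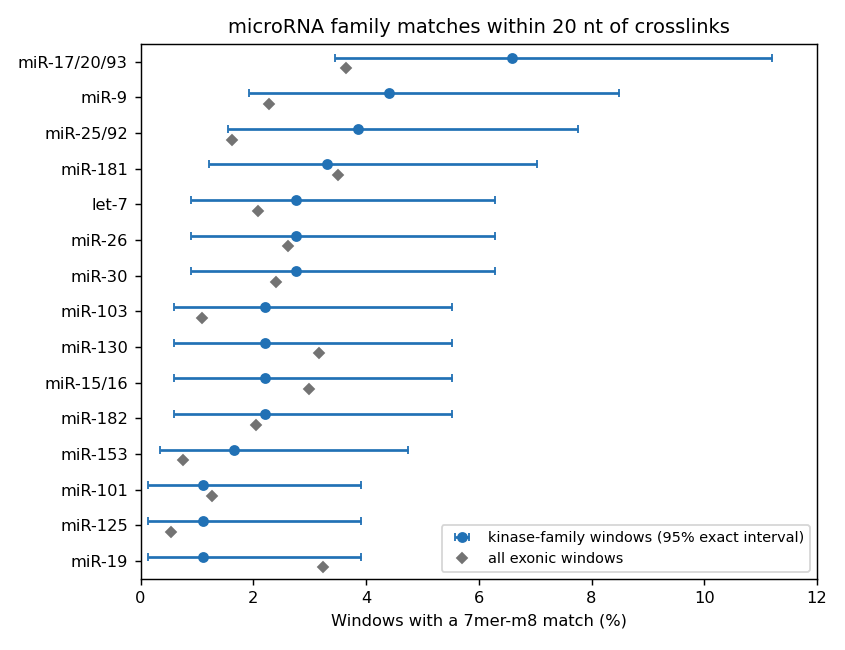
Share of exonic windows (x axis, percent) with a 7mer-m8 of each microRNA family found in 2 or more kinase windows, for the 182 kinase windows (blue, exact 95% interval) and for all 10936 windows (grey diamonds). The widest gap upward was that of miR-17/20/93, at 6.59% beside 3.64%.

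Matches mostly started just after the crosslink, in kinase genes as in the whole table. Of 83 matches in kinase windows, 41 started 1 nt after the crosslinked T (49.4%), beside 39.7% of the 5043 matches in all windows. Of the matches clear of the crosslinked base, 56 started after it and 10 ended before it (84.8% after, 73.9 to 92.5), beside 78.1%. A match near more than 1 crosslink was counted at each, as in Map3k12 and Csnk1a1. The matches are thus not all distinct, while the interval treats them as independent. In 3 or more libraries, all 26 kinase windows with a match had one starting 1 nt upstream to 3 nt downstream of the crosslink. In 2 libraries, 30 of the 42 did. Whatever the number of libraries, 56 of 182 kinase windows (30.8%) had such a start, beside 25.9% of all windows. The share over all windows was not split by number of libraries, so the rise is not a result about kinases.

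**Figure D5:**
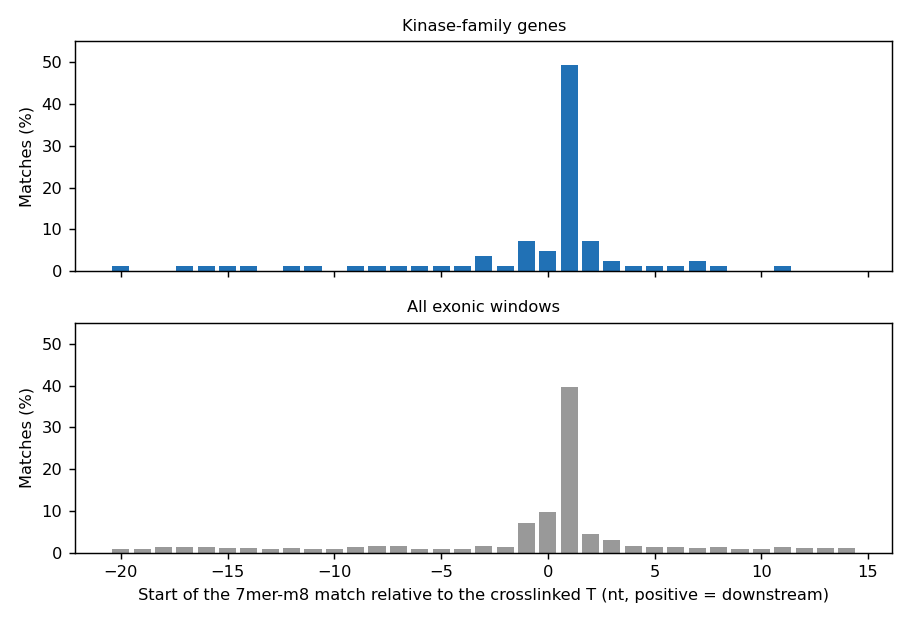
Start of each 7mer-m8 match relative to the crosslinked T (x axis, nt, positive downstream) as percent of matches (y axis), above for the 83 matches in kinase-family windows and below for the 5043 in all exonic windows. Both have their highest bar at 1 nt after the crosslink, at 49.4% and 39.7%.

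Of the 29 kinase positions in 4 or 5 libraries, in 17 genes, 27 were exonic and 13 of these held a match to a searched family. The positions of Camk2n1 and Hipk1 in all 5 libraries had none, and are shown here from 8 nt before to 15 nt after the crosslinked T, which is in capitals.
Camk2n1, 1292 nt after the stop codon: ctgtatgtTgcaccttgaaccagc
Hipk1, 928 nt after the stop codon: ctgtttcaTgtgacttatttgagg
The search did not include miR-124 or miR-122.

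Other genes of the same pathways were taken from a hand-written list, made with earlier results of these data known. Of its 109 genes, 67 had a position (61.5%, 51.7 to 70.6), beside 22.1% of all protein-coding genes. They held 231 positions, 63 of them in 3 or more libraries, beside 25.6% of all positions. A miR-216 site was in 5 of the 67, beside 6.84% of all crosslinked protein-coding genes. Of 46 genes that feed, scaffold or receive MAP kinase signals, 34 had a position. Among them the small GTPase Nras had 14, all in its 3′ UTR, with 1 in 5 libraries; the kinase Taok1, which acts on Map2k enzymes, had 14; and Nf1, which turns Ras off, had 12. Braf, which activates Map2k1 and Map2k2, had 6 positions and 1 miR-216 site. Of 16 phosphatase genes that act on MAP kinases, 8 had a position, and the ERK phosphatase Dusp6 had 5, with 1 in 5 libraries, and 1 miR-216 site. Of 14 calcium and calmodulin genes 8 had a position, of 25 genes for AMPK-related and Hippo proteins 14 had one, and of 8 autophagy genes that act with Ulk kinases 3 had one (Atg13, Rb1cc1 and Ambra1). Spred1, Jun and Mef2d were the other partners with a miR-216 site, with 1 each.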

How the data were processed

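PAR-CLIP libraries of cultured neonatal retina were described as above. CASAVA 1.8.2, STAR and bedtools were run on mm10, per the submitters' processing notes, with further detail not given in the sources used here. As the authors deposited it, the score counts the samples with the crosslink, from 2 to 5, per the file headers. The miR-216 table has no header; its 404 entries describe 394 distinct sites, each counted once, and each kinase site had a crosslink of equal score within 20 nt. No read counts were used, so depth is unknown.

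Same-strand GENCODE M21 transcripts annotated each position. Where transcripts differed, 3′ UTR came before coding sequence, then 5′ UTR, then noncoding exon, then intron. All 10989 exonic positions with a transcript base fell on T, which checks build and strand. Windows came from spliced transcripts, since no genome was used here. A window reaching 20 nt on either side was searched for 40 seed families from RefSeq, and the search was tested on simulated windows. The family list was changed after the files were seen: miR-124 and miR-122 were left out because the sequence table used had no entry for them, and the miR-1 and miR-133 families were searched through miR-206-3p and miR-133b-3p, taken to share their seeds. Intervals are exact 95% Clopper-Pearson (scipy 1.17.1).

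The genes and lists were chosen with earlier results of these data known. Values per position were given for Dyrk2 and Csnk1a1, genes with a miR-216 site, with a position in 4 or 5 libraries or among the 10 with most positions, and genes with an 8mer in 3 or more libraries, 25 in all, of which 1 is not reported here; further values of other genes were chosen after they were seen. Alternatives changed the library minimum, the merging of positions, the class order, the window, the match type and the genes kept.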

Additional observations from a re-analysis of the deposited data

How the results depend on the processing

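Of 35 comparisons of a main result with an alternative, 28 stayed within the 95% interval of the main share or within 1.5 times the main count. Several of them could move little: the class order left the counts per class unchanged, and keeping kinases alone left 202 of 214 positions. Keeping positions in 3 or more libraries gave 27 of 118 kinase-family genes with a position in place of 56 (9.55% of all protein-coding genes in place of 22.1%) and 3′ UTR, coding and intronic shares of 80.0%, 10.8% and 9.23%; over all positions these shares were 67.0%, 17.7% and 6.28%. The count of miR-216 sites, 9, was 0 at a score of 3 or more and 0 with 7mer-m8 or 8mer matches alone. With 8mers alone, 15.4% of exonic kinase windows held a match. Merging positions within 20 nt left 207 of 214 positions and kept each of the 25 named genes within 1.5 times its count. No paired analysis was possible because values per library are lacking in these pooled tables, nor could leave-one-out values be made. The setting without Ulk4 was added after seeing the data. Depth, expression and IgG background behind each position are unknown.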
